A study of Mus musculus with 8 samples.

Results

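Interferon-stimulated genes were followed as a set of 45 named genes in single-cell RNA sequencing of sorted mouse bone marrow. The genes were taken from a list of names by their known induction by interferons, not by their values. Earlier results of these data were known when the list was chosen. All 45 had at least 1 unique molecular identifier (UMI, a count of 1 captured RNA molecule). Of the 27998 genes listed, 19020 had a UMI. They were 16 antiviral effectors, 3 genes of the ISG15 system, 4 transcription factors, 9 interferon-inducible GTPases, 3 RNA sensors, 3 genes of the PARP and DTX3L group and 7 other induced genes.

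The cells were KL cells (c-Kit+Lin-), sorted as CD117+ and negative for the lineage markers CD3, CD4, CD8, CD45R, CD11b, TER119 and GR1, from female B6 mice of 3 to 4 months. SPF mice stayed in a specific pathogen-free facility. CVT mice were SPF mice co-housed for 1 month with CVB mice in a conventional facility, and the study asked whether that housing altered gene expression in blood-forming cells. Marrow of 10 mice a group was pooled by 2 or 3 mice into 4 SPF pools (1, 2, 7 and 8) and 4 CVT pools (3, 4, 5 and 6), so no value belongs to 1 mouse. Pools 1 to 4 held mice numbered 1 to 10 and are called pool set 1, and pools 5 to 8 held mice 11 to 20 and are called pool set 2. Whether these sets were sorted or sequenced on different days is not given in the sources used here.

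The table held 29891 cells, 1888 to 4845 a pool, with 19041749 to 59812346 UMIs a pool and a median of 7530 to 12772 UMIs a cell. A cell was assigned to a pool by the number that ends its name, matched to the number in the label of each pool, and the table itself does not spell this match out. Pairs of pools shared 6 to 33 cell barcodes, and 1048 cells carried a barcode seen in more than 1 pool. The gene of the sorted receptor, Kit, had 56.8 to 87.2 counts per 1000000 UMIs (CPM) a pool and was found in 51.0% of cells. Cd3e was at 0 to 0.454 CPM, whereas Ly6g, which encodes an antigen of the GR1 antibody used to remove cells, was at 7.41 to 69.5 CPM. Doublets were not called, and free RNA was not removed.

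Interferons are secreted proteins that mark viral infection and inflammation. Type I interferon binds IFNAR1 and IFNAR2 and type II binds IFNGR1 and IFNGR2, and both act through JAK kinases and STAT factors. STAT2 and IRF9 act at the interferon-stimulated response element (ISRE), and the gamma-activated sequence (GAS) is the element known for the type II response. Stem cells are known to keep some interferon-stimulated genes on without infection.

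Promoter windows of RefSeq (GRCm38.p6), from 250 bases before to 50 bases after a transcription start, were found for 36 of the 45 members. Both strands were searched for the ISRE core, a pair of TTTC, or on the other strand of GAAA, with 2 bases of any kind between, and for the GAS core TTCNNNGAA, which reads the same on both strands. The ISRE core was present for 20 of the 36 genes (55.56%) and for 3.993% of all 27025 genes with a window. The GAS core was present for 11 of the 36 (30.56%) and for 9.554% of all genes, and both cores for 6 (16.67%) and 0.6142%. By role, the ISRE core was in the windows of 8 of 15 antiviral effectors, 6 of 7 GTPases and 2 of 2 RNA sensors. A match describes letters in a window and is not a measured binding site.

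The 60-base stretches below lie before the start of members that recur in the results, and show how the cores sit in type I response genes (Isg15, Ifit1, Rsad2, Bst2), a transcription factor of the response (Stat2) and a GTPase (Irgm1). Capitals mark the ISRE core, including overlapping copies. Each is written 5′ to 3′ on the strand of its gene.
Isg15, chr4:156200850-156200909, minus strand: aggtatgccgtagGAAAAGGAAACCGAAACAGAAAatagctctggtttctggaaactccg
Ifit1, chr19:34640779-34640838, plus strand: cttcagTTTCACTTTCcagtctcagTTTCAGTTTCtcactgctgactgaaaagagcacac
Rsad2, chr12:26456538-26456597, minus strand: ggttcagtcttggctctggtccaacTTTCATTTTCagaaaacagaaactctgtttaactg
Bst2, chr8:71537562-71537621, minus strand: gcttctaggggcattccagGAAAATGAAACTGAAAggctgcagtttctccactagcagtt
Stat2, chr10:128270251-128270310, plus strand: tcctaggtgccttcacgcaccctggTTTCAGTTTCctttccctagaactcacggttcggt
Irgm1, chr11:48871421-48871480, minus strand: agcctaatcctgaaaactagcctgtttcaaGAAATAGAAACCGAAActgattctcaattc

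The 2 stretches that follow hold a GAS core, in capitals, before the start of Irf1 and of Igtp. Irf1 is a factor known for its response to type II interferon, and Igtp is an interferon-inducible GTPase. The Igtp stretch also carries gaaactgaaa, an ISRE core written here in lower case.
Irf1, chr11:53769899-53769958, plus strand: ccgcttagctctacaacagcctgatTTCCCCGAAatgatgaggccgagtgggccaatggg
Igtp, chr11:58199486-58199545, plus strand: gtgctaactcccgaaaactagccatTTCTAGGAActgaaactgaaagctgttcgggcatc
Isg15 had 3 overlapping cores in its stretch and Ifit1 had 2 separate ones. Among the 9 classes of cells given next, Isg15, Ifit1, Rsad2, Stat2, Irf1 and Igtp were each highest in the class with stem cell markers. Bst2 was highest in Monocyte-like and Irgm1 in CMP-like cells. A relation of the cores to these levels was not tested.

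The cells were grouped into classes by clustering on variable genes from which the 45 members and the genes of an interferon pathway list had been left out, so the members did not shape the classes. Interferon-stimulated genes outside both lists were not left out. A class was named "X-like" from its markers, as with LTHSC-like for long-term stem cell markers such as Procr, Hlf and Mecom. There were 9 classes with at least 20 cells in every pool. They were LTHSC-like (1157 cells), LMPP-like (lymphoid-primed, 3215), CMP-like (2351), GMP-like (2868), MEP-like (erythroid-primed, 6486), Megakaryocyte-like (2552), Monocyte-like (3875), Neutrophil-like (1591) and Basophil and mast-like (705). Another 4795 cells had no name, and B-like (168), Dendritic-like (80) and T and NK-like (48) cells were too few to test. The cells with no name included clusters of 1560 and 1060 cells with the stem cell markers Hlf and Mecom. All comparisons between classes are descriptions with no test, with the CPM of each class summed per pool.

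Among the 9 classes, the median member was highest in LTHSC-like and then LMPP-like cells. The median member was 1.04 ± 0.21 (SD over 8 pools) higher on the log2 scale in LTHSC-like cells than in all KL cells, and 0.69 ± 0.12 higher in LMPP-like cells. It was 0.38 ± 0.18 in CMP-like, -0.07 ± 0.30 in Basophil and mast-like, -0.09 ± 0.14 in Megakaryocyte-like and -0.28 ± 0.18 in Monocyte-like cells. At the low end stood MEP-like cells (-0.41 ± 0.08), GMP-like cells (-0.66 ± 0.18) and Neutrophil-like cells (-0.68 ± 0.23). GMP-like and Neutrophil-like cells did not differ beyond their spread, and neither did Basophil and mast-like, Megakaryocyte-like and Monocyte-like cells.

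The same median over 11374 genes was 0.169 in LTHSC-like, 0.095 in LMPP-like, -0.1699 in GMP-like and -0.815 in Neutrophil-like cells, so the low value in Neutrophil-like cells was that of genes in general. In LTHSC-like cells 27 of 45 members had their highest level, beside 24.9% of all genes. For 18 members the lowest level was in Neutrophil-like cells (58.5% of all genes), for 14 in GMP-like (6.60%) and for 10 in MEP-like cells (14.96%). All of these orders are over the 9 classes with enough cells. With the small classes taken in, 17 members were highest in the 80 Dendritic-like cells, 16 in LTHSC-like and 4 in the 48 T and NK-like cells.

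**Figure D1:**
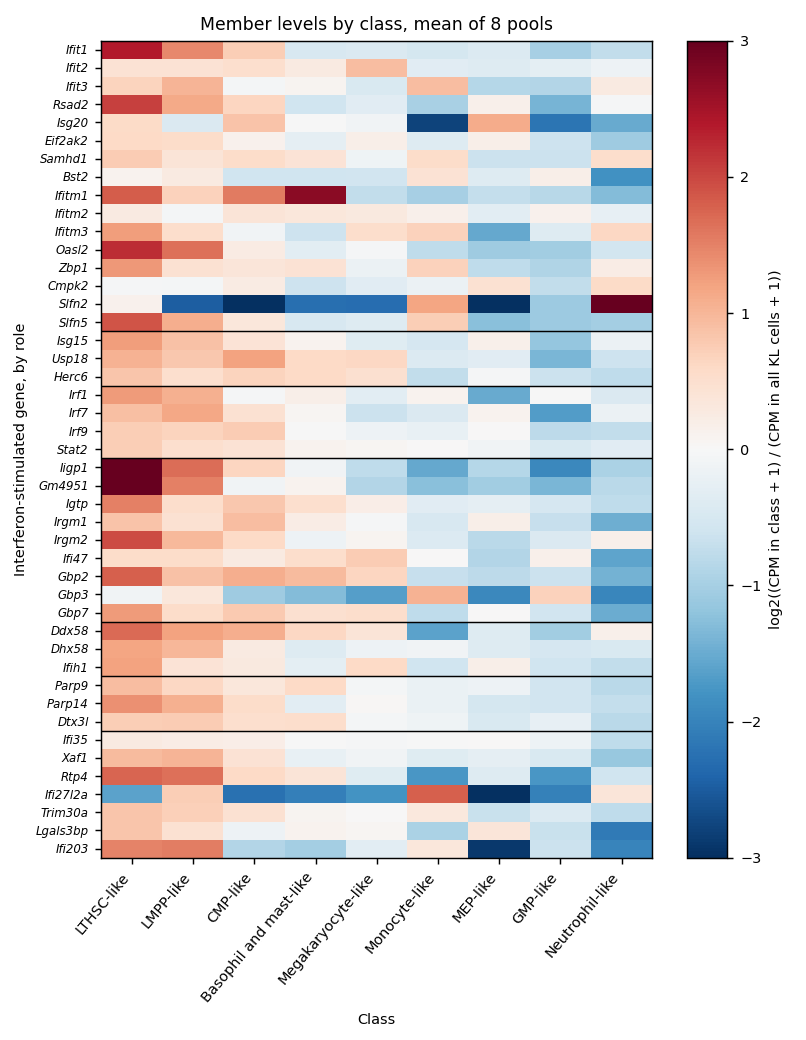
Level of each of the 45 members (rows, grouped by role between black lines) in the 9 classes (columns), as log2 of CPM plus 1 in the class over CPM plus 1 in all KL cells, mean of 8 pools. Most rows are red in LTHSC-like and LMPP-like cells and blue in GMP-like and Neutrophil-like cells, whereas Slfn2, Gbp3, Isg20 and Ifi27l2a run differently.

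Among the antiviral effectors, 15 of 16 were above their KL level in LTHSC-like cells and 2 of 16 in GMP-like cells. Ifit1, which binds viral RNA lacking a host cap, had 32.9 ± 21.5 CPM in LTHSC-like and 2.23 ± 1.49 CPM in GMP-like cells. Rsad2, or viperin, had 28.01 ± 14.5 and 1.68 ± 1.70 CPM in the same classes, and Oasl2 fell from 50.2 ± 12.7 CPM in LTHSC-like to 4.25 ± 1.13 CPM in MEP-like cells. Counts of Ifit1 and Ifit3 are uncertain, since reads can be shared with the near copies Ifit1bl1, Ifit1bl2 and Ifit3b.

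The IFITM genes encode membrane proteins that block virus entry, and each had an order of its own. Ifitm3 was highest in LTHSC-like cells, at 1140 ± 110 CPM, and lowest in MEP-like cells, at 164 ± 24.2 CPM. Ifitm1 was highest in Basophil and mast-like cells (2490 ± 466 CPM), and Ifitm2 varied least, from 542 ± 64.4 CPM in MEP-like to 883 ± 66.0 CPM in CMP-like cells.

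Other effectors ran against the stem cell order. Slfn2, a regulator of quiescence in immune cells, had 276 ± 42.4 CPM in Neutrophil-like and 1.55 ± 0.98 CPM in MEP-like cells. Isg20, an RNA exonuclease, was highest in MEP-like cells at 59.9 ± 6.59 CPM and lowest in Monocyte-like cells at 3.12 ± 1.51 CPM. Bst2, the tetherin that holds virus particles at the cell surface, had 203 ± 16.2 CPM in Monocyte-like cells and 2764 CPM in the 80 Dendritic-like cells.

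The ISG15 system attaches the ubiquitin-like ISG15 to proteins and removes it. Isg15 had 61.7 ± 19.6 CPM in LTHSC-like, 47.5 ± 11.6 CPM in LMPP-like and 10.8 ± 1.84 CPM in GMP-like cells, and 113.7 CPM in the 80 Dendritic-like cells. Usp18, the protease that removes ISG15 and dampens the receptor, had 16.4 ± 5.45 CPM in CMP-like and 14.5 ± 8.41 CPM in LTHSC-like cells, which did not differ beyond their spread, and 1.90 ± 0.85 CPM in GMP-like cells.

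All 4 transcription factors were above their KL level in LTHSC-like cells and none in GMP-like cells. Irf7, which amplifies the type I response, had 24.9 ± 6.73 CPM in LMPP-like, 20.6 ± 2.74 CPM in LTHSC-like and 2.64 ± 1.55 CPM in GMP-like cells. Irf1 fell from 40.2 ± 10.5 CPM in LTHSC-like to 5.02 ± 1.0 CPM in MEP-like cells, and Stat2 from 10.1 ± 3.12 CPM in LTHSC-like to 3.86 ± 1.43 CPM in GMP-like cells.

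The GTPases take part in defence against pathogens inside cells, and 2 of them fell steeply away from the stem and lymphoid end. Iigp1 had 56.0 ± 11.8 CPM in LTHSC-like, 18.01 ± 6.29 CPM in LMPP-like and 0.55 ± 0.45 CPM in GMP-like cells. Gm4951, a close relative whose reads can be shared with Iigp1, had 28.6 ± 6.27, 6.68 ± 3.19 and 0.04 ± 0.08 CPM. Igtp had 38.5 ± 15.5 CPM in LTHSC-like cells and 7.13 ± 2.48 CPM in Neutrophil-like cells. Gbp3 was an exception, highest in Monocyte-like (43.6 ± 4.47 CPM) and GMP-like cells (33.8 ± 2.45 CPM).

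Ddx58, which encodes the RNA sensor RIG-I, had 30.7 ± 7.24 CPM in LTHSC-like and 2.25 ± 0.91 CPM in Monocyte-like cells. All 3 RNA sensors and all 3 genes of the PARP and DTX3L group were above their KL level in LTHSC-like cells. Among the other induced genes, Ifi35 had 52.1 ± 11.7 CPM in LTHSC-like and 24.7 ± 4.28 CPM in Neutrophil-like cells, whereas Ifi203 had 211 ± 29.1 CPM in LMPP-like and 8.74 ± 2.19 CPM in MEP-like cells. Ifi27l2a had 185 ± 149 CPM in Monocyte-like cells, the SD reflecting pools that ran from 46.2 to 489.7 CPM.

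Cells differ in depth, so each cell was thinned to 2759 UMIs, the lowest total of any cell, before cells with a UMI were counted. Isg15 was then found in 11.7% of LTHSC-like and 2.79% of GMP-like cells, beside 21.3% and 12.6% before thinning. Iigp1 was found in 10.8% of LTHSC-like and 0.07% of GMP-like cells after thinning, with median depths of 5429 and 15690 UMIs a cell before it. Isg15 and Iigp1 were thus seen in a minority of cells even where their level was highest, while Ifitm3 was seen in 91.6% of LTHSC-like and 38.3% of MEP-like cells.

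The 16 members of a type I core list (such as Ifit1, Isg15, Irf7, Oasl2, Usp18, Rsad2 and Ddx58) were then counted within single thinned cells. Of all cells, 20060 (67.1%) had none of the 16 and 1136 (3.8%) had at least 3. The tail was long, with 235 cells at 5 or more, 43 at 8 or more and 1 cell at 13. At least 3 core members were found in 11.1% of LTHSC-like, 9.89% of LMPP-like, 4.64% of CMP-like, 2.39% of MEP-like and 0.523% of GMP-like cells, and in 3.71% of the cells with no name. Free RNA was not removed, and the GMP-like share is the lowest of the classes with enough cells.

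**Figure D2:**
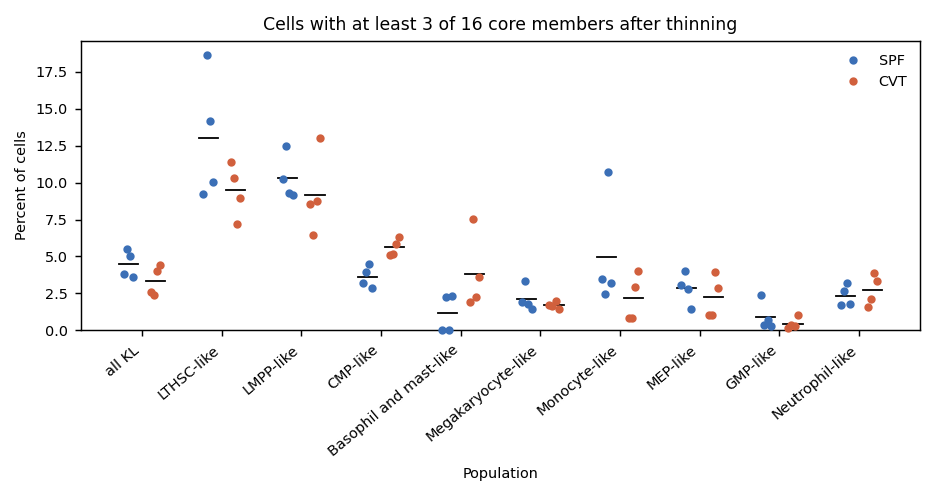
Percent of cells with a UMI of at least 3 of the 16 core members after thinning to 2759 UMIs, by population, with 1 point for each SPF (blue) and CVT (orange) pool and a black bar at the group mean. LTHSC-like and LMPP-like pools run from 6.45 to 18.7 percent, and GMP-like pools from 0.184 to 2.38 percent.

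Core members tended to be found in the same cells, though not for every pair in every class. Among LTHSC-like cells, Isg15 was found in 35.9% of the 64 cells with Ifit1 and in 10.2% of the 1093 without it. Rtp4 was found in 55.1% of the 136 LMPP-like cells with Ifit1 and in 16.7% of the 3079 without it. Isg15, however, was found in 4.84% of the 62 Megakaryocyte-like cells with Oasl2 and in 5.22% of the 2490 without it. Outside the core list, Ifitm3 was found in 83.6% of LMPP-like cells with Ifitm1 and 70.8% without it. The shares were 49.2% and 33.7% in MEP-like and 65.3% and 49.9% in GMP-like cells. They were close in CMP-like (63.4% and 63.0%) and Megakaryocyte-like cells (79.8% and 77.8%). In LTHSC-like cells nearly all cells had Ifitm3, so the pair could not be read there. These shares are over cells, which share pools and are not replicates.

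The main comparison asked whether co-housing altered the members. In all KL cells summed per pool, 41 of 45 members had a lower fitted level in CVT and 4 a higher one, beside 53.5% of all 13092 tested genes lower. The median log2 fold change of CVT over SPF was -0.20 for the members and -0.01 for all genes. However, none of the 45 was called at an adjusted p of 0.05 (edgeR quasi-likelihood test, Benjamini-Hochberg adjustment, 4 pools a group), and no gene of the table was (0% called). Without adjustment, 5 members had a p under 0.05 and were lower, beside 4.04% of all genes, and 0 were higher. DESeq2 called 0 members as well.

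The direction was shared by all roles. Lower were 14 of 16 antiviral effectors, 3 of 3 in the ISG15 system, 4 of 4 transcription factors, 8 of 9 GTPases, 3 of 3 RNA sensors, 3 of 3 in the PARP and DTX3L group and 6 of 7 other induced genes. The members with the largest fitted fold changes were Ifit3, Slfn2, Slfn5 and Gm4951 downward and Gbp3, Isg20, Cmpk2 and Lgals3bp upward. Every CVT pool was below every SPF pool for 4 members, Ifi35, Parp9, Dhx58 and Ifih1, beside 5.26% of all genes, and above for none, beside 0.901%. The names Ifi35, Parp9, Dhx58 and Ifih1 were all picked out after their values were seen.

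**Figure D3:**
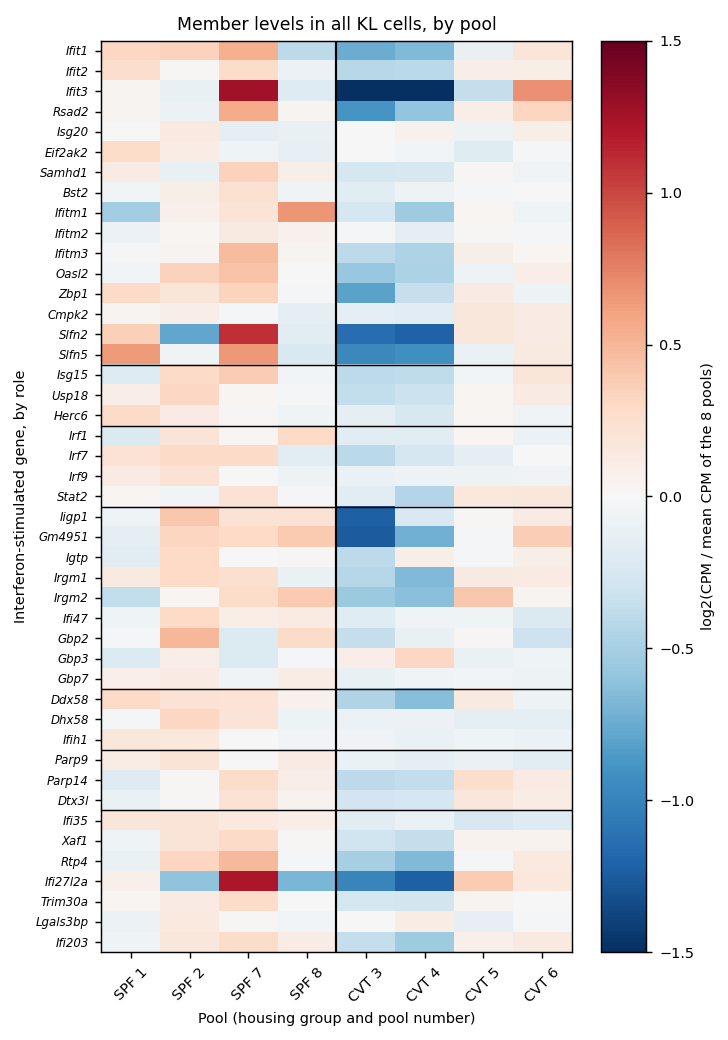
Level of the 45 members (rows, by role) in all KL cells of each pool (columns, SPF left and CVT right of the line), as log2 of CPM over the mean CPM of the 8 pools. CVT pools 3 and 4 are the bluest columns, CVT pools 5 and 6 are close to the mean, and SPF pool 7 is the reddest.

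Ifi35, which encodes a leucine zipper protein induced by interferon, had the lowest p of the members. It had 48.5, 48.9, 47.3 and 45.9 CPM in SPF pools 1, 2, 7 and 8, and 38.4, 39.96, 36.3 and 37.6 CPM in CVT pools 3, 4, 5 and 6. The groups did not overlap and the pools within each were close. The log2 fold change was -0.27 (SE 0.06, adjusted p = 0.636 by edgeR), with a 95% interval of -0.40 to -0.14. The adjusted p was 0.108 with pool set as a block, still above the threshold. With that block 0 of 45 members were called in KL cells by edgeR, beside 0.0306% of all genes, and 18 were lower at an unadjusted p under 0.05, beside 8.17% of all genes.

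The classes are parts of the same 8 pools in which Ifi35 was picked out, so they are not independent repeats. The same direction was seen for Ifi35 in class after class. Its mean CPM was lower in CVT in all 9 classes, and the groups did not overlap in 4 of them, CMP-like, LMPP-like, Megakaryocyte-like and Monocyte-like. In LMPP-like cells the SPF pools 1, 2, 7 and 8 had 54.1, 64.2, 63.3 and 53.3 CPM and the CVT pools 3, 4, 5 and 6 had 41.3, 45.5, 37.7 and 44.2 CPM, with a log2 fold change of -0.44 (SE 0.10, adjusted p = 0.431 by edgeR). Ifi35 in LMPP-like cells was called only with every gene that had a UMI in the test (adjusted p = 0.0235). In LTHSC-like cells the 2 groups met, with 54.1 to 64.8 CPM in SPF and 30.1 to 56.6 CPM in CVT.

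Of the hallmark members, Isg15 had 22.1, 30.9, 32.8 and 24.6 CPM in SPF pools 1, 2, 7 and 8, and 19.2, 19.4, 24.5 and 28.7 CPM in CVT pools 3, 4, 5 and 6. Pools 3 and 4 were the lowest and pool 6 was inside the SPF range. The log2 fold change of Isg15 was -0.22 (SE 0.16, adjusted p = 0.795 by edgeR), and ran from -0.35 to -0.12 on leaving out 1 pool. Irf7 had 9.36 to 12.9 CPM in SPF and 7.96 to 10.6 CPM in CVT, and a log2 fold change of -0.30 (SE 0.13, adjusted p = 0.691).

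Ifit3 was near the detection limit, at 1.10, 0.996, 2.57 and 0.942 CPM in SPF pools 1, 2, 7 and 8 and 0.24, 0.17, 0.84 and 1.73 CPM in CVT pools 3, 4, 5 and 6. The groups overlapped over a wide range. Its log2 fold change was -0.86 (SE 0.66, adjusted p = 0.801 by edgeR), and ran from -1.73 without CVT pool 6 to -0.42 without SPF pool 7. Ifitm3 had 467 to 661 CPM in SPF and 347 to 508 CPM in CVT, with a log2 fold change of -0.26 (SE 0.15, adjusted p = 0.747) that was -0.12 without SPF pool 7.

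The other hallmark members had the smallest estimates. The log2 fold change was -0.04 (SE 0.14) for Stat2, -0.04 (SE 0.13) for Igtp, -0.07 (SE 0.08) for Bst2 and -0.15 (SE 0.11) for Irf1, with adjusted p of 0.962, 0.958, 0.876 and 0.790 by edgeR. Stat2, Igtp and Bst2 each changed sign on leaving out 1 pool.

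Slfn2 had 35.9, 16.3, 60.2 and 25.1 CPM in SPF pools 1, 2, 7 and 8 and 12.7, 12.1, 31.5 and 30.6 CPM in CVT pools 3, 4, 5 and 6 (log2 fold change -0.62, SE 0.44, adjusted p = 0.786 by edgeR). The fold change ran from -0.85 to -0.18 on leaving out 1 pool, the latter without SPF pool 7. The summed level of the 10 neutrophil markers, which are all detected, was 22919, 9524, 45583 and 17383 CPM in the same SPF pools and 8943, 5758, 27463 and 25638 CPM in the same CVT pools. Pool 7 was the highest and pool 4 the lowest for both, and the part of neutrophil RNA in Slfn2 was not tested.

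Slfn5 had a log2 fold change of -0.61 (SE 0.31, adjusted p = 0.708 by edgeR) and Gm4951 of -0.49 (SE 0.31, adjusted p = 0.766). Upward, the estimates were smaller, at 0.20 (SE 0.11, adjusted p = 0.747) for Gbp3, a guanylate-binding protein, 0.09 (SE 0.08, adjusted p = 0.831) for Isg20, 0.06 (SE 0.09, adjusted p = 0.906) for the nucleotide kinase gene Cmpk2 and 0.03 (SE 0.08, adjusted p = 0.943) for Lgals3bp. All of these intervals included 0.

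The pool sets differed within the comparison. Taken as a ratio of mean CPM, 43 of 45 members were lower in CVT in pool set 1, with a median log2 ratio of -0.39, beside 69.1% of all genes lower and a median of -0.09. In pool set 2 there were 35 lower members with a median of -0.11, beside 61.4% of all genes and -0.04. Relative to its mean over the pools, the median member stood at -0.31 and -0.27 on the log2 scale in CVT pools 3 and 4, and at 0.01 and 0.03 in CVT pools 5 and 6. A test of the difference (housing by pool set) called 0 of 45 members by edgeR, and 0% of all genes. Its estimate was positive for 36 members, and 11 of these had an unadjusted p under 0.05, beside 3.86% of all genes positive at that p.

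A sum over all KL cells cannot tell a smaller share of a cell type from less RNA per cell. LTHSC-like cells, where most members were highest, were 1.39% to 4.26% of the cells of CVT pools and 4.03% to 7.23% of those of SPF pools. For LMPP-like cells the shares were 7.42% to 10.43% and 10.33% to 13.52%. GMP-like cells, where members were low, were 8.68% to 12.79% and 6.67% to 8.58%, without overlap. Shares of Neutrophil-like and MEP-like cells, also low for members, overlapped between the groups. The summed level of the 8 LTHSC markers was 72.2 and 63.5 CPM in CVT pools 3 and 4, 102 and 106 CPM in CVT pools 5 and 6, and 108 to 123 CPM in SPF pools. With the UMI share of every class held at its mean over the 8 pools, a calculation chosen after the data were seen, 38 of 45 members were lower in CVT with a median log2 ratio of mean CPM of -0.13, beside 42 and -0.25 as measured. On this ratio 66.8% of all genes were lower with shares fixed (median -0.04) and 69.7% as measured (median -0.06). With shares fixed, 42 members were lower in pool set 1 (median -0.24), 27 in pool set 2 (-0.04), and 34 over both sets without SPF pool 7 (-0.09). The ratio moved from -0.45 to about 0 for Iigp1 and from -0.51 to 0.02 for Gm4951, whereas Ifi35 stood at -0.32 and -0.30.

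**Figure D4:**
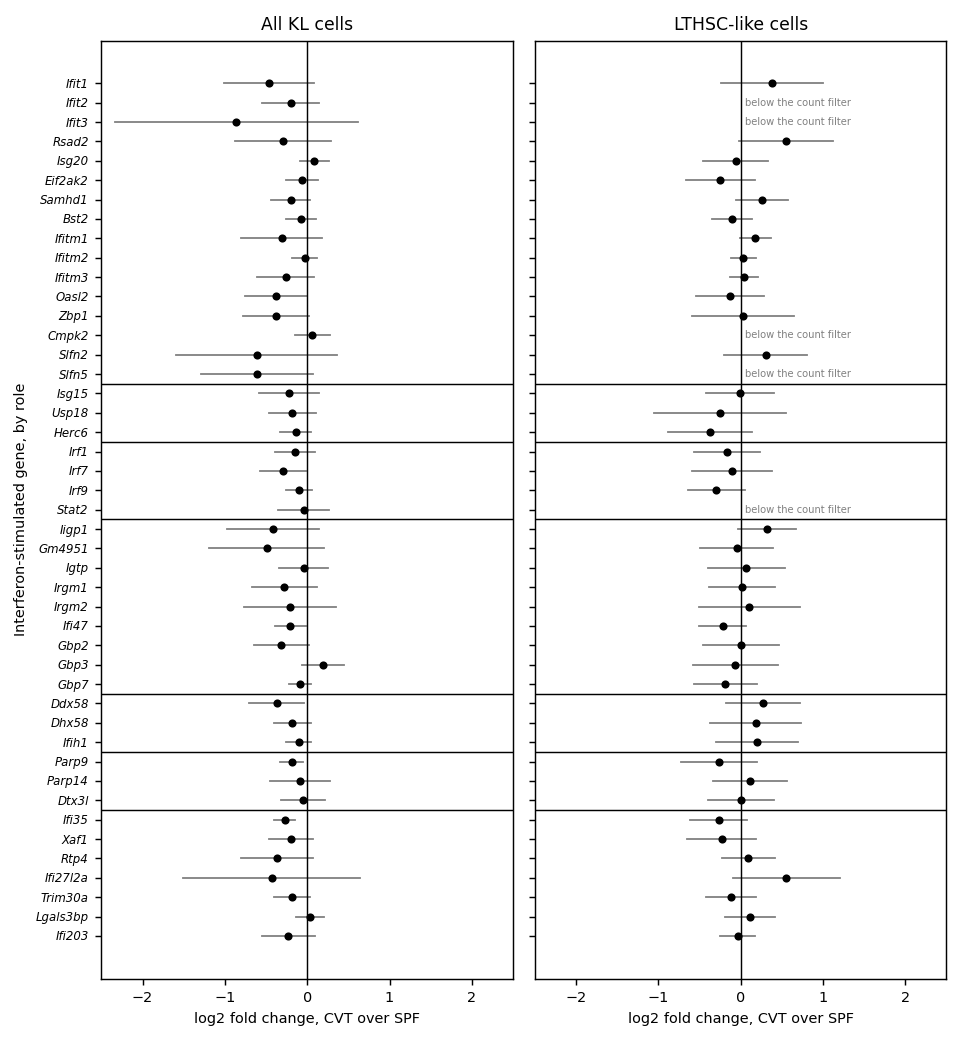
Log2 fold change of CVT over SPF with its 95% interval for each of the 45 members (rows, by role), in all KL cells (left) and in LTHSC-like cells (right), from edgeR. In KL cells 41 points lie left of 0 and in LTHSC-like cells 19 of the 40 members tested do.

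Within LTHSC-like cells the members showed no common direction. Of 40 members tested, 19 were lower and 21 higher in CVT, with a median log2 fold change of 0.01. None was called by edgeR (0% of 7191 genes) or DESeq2, 0 had an unadjusted p under 0.05 (2.09% of genes lower), and in 0 of them did the pools of the groups separate (2.34% of genes with CVT below, 1.06% above). The median SE of 0.20 limits what these pools of 58 to 328 LTHSC-like cells could show. The largest estimates were -0.38 (SE 0.25, adjusted p = 0.974 by edgeR) for Herc6, a ligase of ISG15, and -0.30 (SE 0.17, adjusted p = 0.959) for Irf9. Upward they were 0.55 (SE 0.28, adjusted p = 0.953) for Rsad2 and 0.55 (SE 0.32, adjusted p = 0.959) for Ifi27l2a.

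Rsad2 in LTHSC-like cells had 13.1, 22.5, 27.9 and 18.95 CPM in SPF pools 1, 2, 7 and 8 and 52.7, 48.4, 19.9 and 20.8 CPM in CVT pools 3, 4, 5 and 6. Pools 3 and 4, the lowest for Rsad2 in all KL cells, were the highest here. Isg15 in LTHSC-like cells likewise had 87.9 and 85.4 CPM in CVT pools 3 and 4, beside 45.7 to 79.7 CPM in SPF pools and 36.8 and 50.4 CPM in CVT pools 5 and 6. These pools had 70 and 58 LTHSC-like cells.

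**Figure D5:**
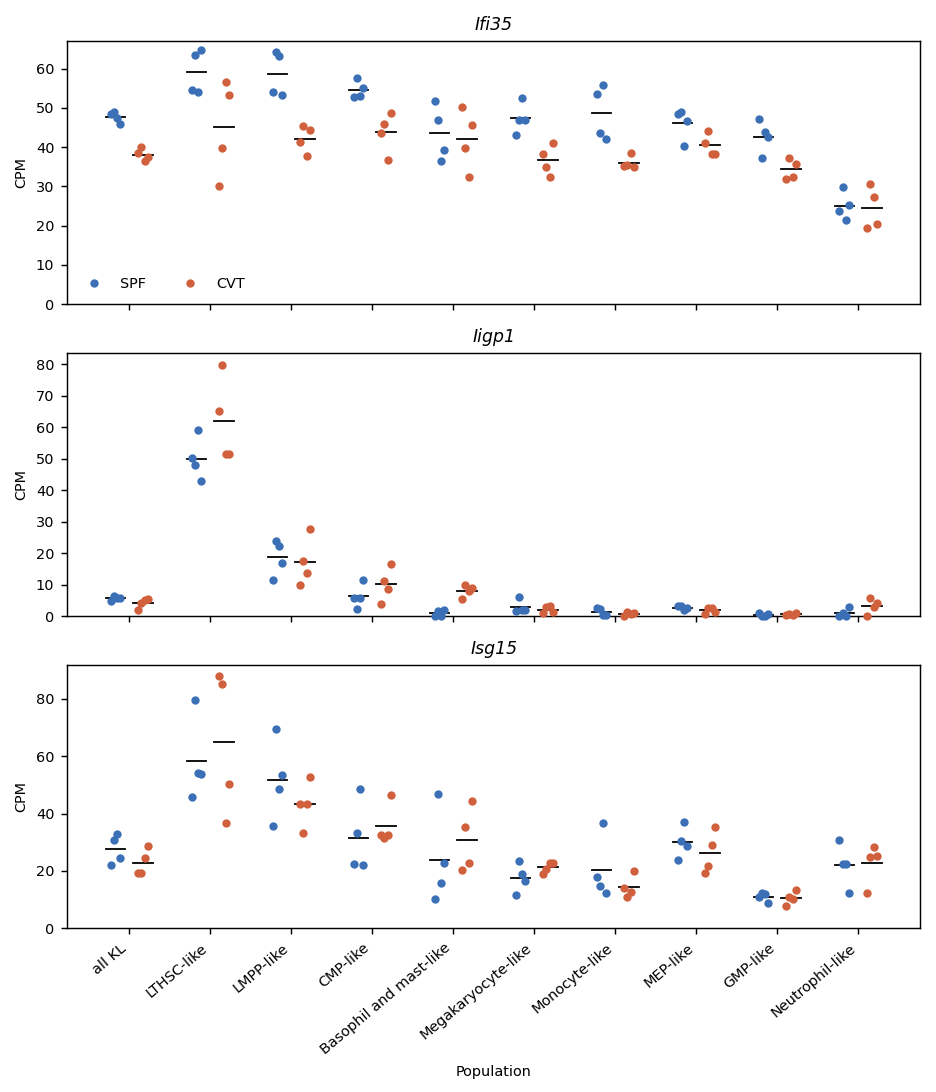
CPM of Ifi35, Iigp1 and Isg15 (panels) in all KL cells and in the 9 classes, with 1 point for each SPF (blue) and CVT (orange) pool and a black bar at the group mean. Ifi35 has lower CVT bars in every class, Iigp1 is high in LTHSC-like cells of both groups, and Isg15 groups overlap in each population.

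GMP-like cells, where members were low, had 20 of 39 tested members lower in CVT with none called by edgeR (0% of 10005 genes) or DESeq2. Among them 2 were lower at an unadjusted p under 0.05 (2.57% of genes), and for 1, Irf9, each CVT pool was below each SPF pool (3.53% of genes below, 1.01% above). The largest estimates were -0.40 (SE 0.30, adjusted p = 0.959) for Ddx58 and -0.32 (SE 0.23, adjusted p = 0.959) for Cmpk2 downward, and 0.28 (SE 0.32, adjusted p = 0.97) for Ifit2 and 0.18 (SE 0.41, adjusted p = 0.9997) for Irf7 upward, by edgeR. Irf7 was at 1.13 to 5.81 CPM in the 8 pools of GMP-like cells.

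Monocyte-like cells had 38 of 43 members lower, with a median of -0.24 that came to -0.11 without SPF pool 7, and none called (0% of 10354 genes). MEP-like cells had 35 of 42 lower with a median of -0.17 (0% of 10708 genes), and LMPP-like cells 32 of 45 with a median of -0.13 (0% of 10008 genes). On leaving out 1 pool the LMPP-like median ran from -0.23 without CVT pool 6 to -0.0134 without SPF pool 2, with 24 to 35 members lower. The MEP-like median ran from -0.22 to -0.10, the latter without CVT pool 3. In CMP-like (16 of 40, 0.0590% of genes called), Megakaryocyte-like (20 of 40, 0%), Neutrophil-like (14 of 28, 0%) and Basophil and mast-like cells (9 of 22, 0.0325%), the members tested were not mostly lower. None of the members was called in any class by edgeR with low counts filtered or by DESeq2. Whether one class differed from another was not tested.

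Few of the members tested had groups of pools that did not overlap within a class. Every CVT pool was below every SPF pool for Ifi35 and Lgals3bp in LMPP-like cells (2.93% of genes), for Gbp2 and Irf9 in MEP-like cells (2.08%), for Ifi35 in CMP-like (2.63%), Megakaryocyte-like (2.36%) and Monocyte-like cells (2.30%), and for Ddx58 in Neutrophil-like cells (1.09%). Every CVT pool was above every SPF pool for Gbp3, Gbp7 and Rsad2 in Megakaryocyte-like cells (0.866% of genes), for Isg20 and Eif2ak2 in Basophil and mast-like cells (1.02%), and for Lgals3bp in Neutrophil-like cells (1.85%). No tested member was above in LMPP-like (1.15%), MEP-like (0.934%), CMP-like (1.04%) or Monocyte-like cells (1.40%), or below in Basophil and mast-like cells (2.58%). Members too low to be tested are left out here, namely Iigp1 in Basophil and mast-like and Slfn5 in CMP-like cells, both with every CVT pool above. These genes were picked out after their values were seen.

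Ifitm1 in CMP-like cells was called only with every gene that had a UMI in the test (log2 fold change -0.52, adjusted p = 9.9e-10 by edgeR), and had an adjusted p of 0.738 with low counts filtered. It had 967, 1070, 894 and 2359 CPM in SPF pools 1, 2, 7 and 8 and 780, 939, 1010 and 846 CPM in CVT pools 3, 4, 5 and 6. The groups overlapped, and without SPF pool 8 the log2 fold change was -0.08.

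The share of cells with at least 3 core members was 3.35% ± 0.99 (SD, n = 4 pools) in CVT and 4.49% ± 0.93 (SD, n = 4 pools) in SPF KL cells. The groups overlapped, at 2.39% to 4.41% and 3.595% to 5.51%. In LTHSC-like cells the shares were 9.47% ± 1.84 in CVT and 13.02% ± 4.34 in SPF, which overlapped too. In CMP-like cells the CVT pools lay at 5.10% to 6.33% and the SPF pools at 2.88% to 4.46%, but the groups overlapped when at least 2 core members (11.7% to 13.4% and 11.5% to 12.9%), at least 5 (0.649% to 2.53% and 0% to 1.91%) or all UMIs of a cell (10.1% to 13.6% and 9.29% to 11.7%) were taken.

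The members were also compared between the pool sets. In all, 11 of 45 members were called higher in pool set 2 than in pool set 1 in all KL cells and none lower (edgeR with housing in the fit). Of all 13092 genes tested, 1373 were called higher and 1273 lower, together 20.2%. The share of members called in either direction was thus near that of all genes. The 11 members were the antiviral genes Ifit3, Rsad2, Ifitm1, Ifitm3, Samhd1 and Slfn2, the GTPase Irgm2, the pair Parp14 and Dtx3l, and Ifi203 and Ifi27l2a. The number depended on the pools, at 0 without pool 3, 4 or 5, 1 without pool 6, 2 without pool 7 and 24 without pool 8. Haemoglobin genes also moved with the sets, at 134 to 174 CPM in pools 1 to 4 and 1546 to 4502 CPM in pools 5 to 8, and their part in the result was not tested.

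Parp14, a mono-ADP-ribosyltransferase, had 9.93, 11.6, 8.67 and 8.84 CPM in pools 1 to 4 and 13.7, 12.4, 13.8 and 12.2 CPM in pools 5 to 8, without overlap (log2 fold change 0.43, SE 0.09, adjusted p = 0.0156 by edgeR). Dtx3l, its ubiquitin ligase neighbour, had 19.6, 21.3, 17.4 and 17.6 CPM and then 23.8, 22.7, 24.5 and 21.9 CPM in the same order (0.30, SE 0.07, adjusted p = 0.0191). Both sets held SPF and CVT pools, and all pools of set 2 were above those of set 1 for both genes.

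Irgm2 had a log2 fold change between the sets of 0.66 (SE 0.13, adjusted p = 0.0159 by edgeR) and Rsad2 of 0.65 (SE 0.16, adjusted p = 0.0219). Ifitm1 was at 0.52 (SE 0.14, adjusted p = 0.0296), Ifitm3 at 0.39 (SE 0.09, adjusted p = 0.0190), Ifi203 at 0.35 (SE 0.09, adjusted p = 0.0252) and Samhd1, a nucleotide hydrolase that restricts viruses, at 0.23 (SE 0.07, adjusted p = 0.0427). Ifit3 was at 1.53 (SE 0.46, adjusted p = 0.0411), with counts near the detection limit.

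Ifi27l2a had 55.8, 34.7, 26.6 and 22.6 CPM in pools 1 to 4 and 68.6, 59.2, 123 and 32.8 CPM in pools 5 to 8 (log2 fold change 1.10, SE 0.33, adjusted p = 0.0412 by edgeR). Slfn2 was at 1.04 (SE 0.28, adjusted p = 0.0304). Both genes had their highest KL level in pool 7 and their lowest in pool 4, as did the neutrophil markers, and that relation was not tested.

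Within classes, pool set 2 was higher for Dtx3l in GMP-like cells (0.51, SE 0.11, adjusted p = 0.0121 by edgeR, 3.45% of genes called), for Ifitm1 in LMPP-like cells (0.70, SE 0.11, adjusted p = 8.9e-04, 1.10% called), and for Ifitm1 (0.82, SE 0.16, adjusted p = 0.0415) and Rsad2 (1.45, SE 0.24, adjusted p = 0.0111) in MEP-like cells (0.607% called). In LTHSC-like cells 28 of 40 members were lower in pool set 2 and none was called by edgeR (0.250% of genes), with 8 lower and 1 higher at an unadjusted p under 0.05, beside 4.26% and 4.76% of genes. The housing by pool set test called no member in LTHSC-like (0.153% of genes called), LMPP-like (0.0200%), GMP-like (0.0700%) or MEP-like cells (0%).

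A list of 32 receptors, kinases, regulators and related factors of the interferon pathway was followed beside the members, of which 26 had a UMI and 24 were tested in KL cells. None was called between CVT and SPF in KL cells or in any class. The log2 fold change in KL cells was -0.12 (SE 0.09, adjusted p = 0.792 by edgeR) for Ifnar1, -0.02 (SE 0.05, adjusted p = 0.946) for Ifnar2, -0.07 (SE 0.09, adjusted p = 0.887) for Ifngr1 and 0.11 (SE 0.07, adjusted p = 0.764) for Ifngr2. These 4 receptor genes each had overlapping groups of pools in KL cells. Of other listed genes, Jak1, Irf2, Ptpn6, Tbk1 and Il10rb had every CVT pool below every SPF pool, beside 5.26% of all genes. Their log2 fold changes ran from -0.24 (Irf2) to -0.11 (Tbk1), with adjusted p of 0.672 to 0.745 by edgeR. Upward estimates were those of Irf8, Ifngr2, Tmem173, Ptpn2 and Jak2. The names were picked out after their values were seen.

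The receptor genes differed from each other in their order by class. Ifnar1 was at 29.4 ± 8.35 CPM in LTHSC-like and 13.2 ± 2.39 CPM in GMP-like cells, whereas Ifngr1 was at 77.7 ± 7.83 CPM in LTHSC-like and 209 ± 12.2 CPM in GMP-like cells.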

How the data were processed

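KL cells of 8 pools were measured by droplet single-cell RNA sequencing (Chromium 3′ kit V2). The authors deposited 1 table of UMI counts per gene and cell, raw and not normalized. The submitters' processing notes name Cell Ranger, with no version, and the genome build mm9, and the deposited counts carry no coordinates. Coordinates and promoters are those of RefSeq (GRCm38.p6), matched by symbol.

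Cells were normalized to 10000 UMIs, and 1000 variable genes, without the 45 members and the pathway list, gave 30 principal components, a neighbour graph (k = 30) and Leiden clusters at resolution 2 (34 clusters, leidenalg). A cluster took the class with most markers among its 50 genes of largest fold, if these were at least 3. A tie went to the class with more markers among the top 10 genes and otherwise left the cluster unnamed, as did a top 10 led by another class. UMI counts were summed per pool and class and tested with edgeR 4.0.16 (TMM, filterByExpr, quasi-likelihood test, Benjamini-Hochberg over all genes tested in a population, threshold 0.05), with housing alone as the main design and housing plus pool set for the set comparison. Errors are the log2 fold change divided by the square root of F, and intervals use 95%. Levels are CPM with SD over pools. Depth was 19041749 to 59812346 UMIs a pool, and intervals cover the spread between pools of mice, not single mice. Scripts were tested on simulated data.

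Named were all members called between CVT and SPF in any fit or between pool sets in the main fits. Also named were the 4 largest fold changes each way in KL cells, the 2 largest each way in LTHSC-like and GMP-like cells, and 8 hallmark members. Members called between pool sets only in an alternative fit were counted but not named for that call. The members, roles, marker lists and tests were chosen with earlier results of these data known. Alternatives were RLE scaling, no count filter, DESeq2 1.42.0, a pool set block, leaving out each pool, filters on cells and other clusterings. No paired analysis was possible because SPF and CVT pools share no number. One gene of the pathway list is not reported here.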

Additional observations from a re-analysis of the deposited data

Results flagged for a closer look

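The highest and lowest pool of each group of 4 was compared with its nearest neighbour for the 45 members in all KL cells and in LTHSC-like cells, which gives 180 groups, and a gap to that neighbour above Dixon's 95% value for 4 samples picked out 9 results. Chance alone picks out about 1 in 20 groups, which is as many as were found.

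SPF pool 7 was far above the other SPF pools in KL cells for Ifit3 (2.57 CPM, others 0.94 to 1.10), Rsad2 (8.88 CPM, others 5.67 to 6.21) and Ifitm3 (661 CPM, others 467 to 491). Pool 7 was made from 2 mice and had 2064 cells, and it also had the highest summed level of neutrophil markers, whose part was not tested. In LTHSC-like cells, CVT pool 3 (70 cells) was high for Ifit1 (82.9 CPM, others 20.8 to 28.5) and Usp18 (30.1 CPM, others 6.92 to 8.54) and low for Ifi203 (173 CPM, others 202 to 206). CVT pool 6 was high for Irgm1 (50.4 CPM, others 29.8 to 32.7), CVT pool 5 was low for Samhd1 (61.6 CPM, others 88.0 to 92.9), and SPF pool 1 was low for Ifitm3 (1026 CPM, others 1175 to 1180).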

How the results depend on the processing

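Under the other scaling, DESeq2, the cell filters and the pool set block, no member was called between CVT and SPF in the populations each was run on (the cell filters on KL cells alone), and in KL cells 35 to 41 members were lower on leaving out 1 pool, with a median of -0.26 to -0.14. With every gene with a UMI tested, 1 member was called in CMP-like cells (Ifitm1, -0.52) and 1 in LMPP-like cells (Ifi35, -0.45), and 16 Basophil and mast-like members were lower, as were 14 at Leiden resolution 1. The pool set count ran from 0 to 24 members on leaving out 1 pool. With class shares held fixed, chosen after seeing the data, 38 members were lower (-0.13).

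The sign changed on leaving out 1 pool in KL cells for Bst2 (-0.11 to 0.0058), Dtx3l (-0.13 to 0.0234), Ifi27l2a (-0.71 to 0.18), Igtp (-0.11 to 0.067), Lgals3bp (-0.0176 to 0.0885), Parp14 (-0.21 to 0.0204) and Stat2 (-0.12 to 0.0622), and in GMP-like cells for Irf7 (-0.16 to 0.58). Irf7 was also at -0.0162 with DESeq2 and Cmpk2 at 0.0102 with resolution 1 in GMP-like cells. Only members named for these comparisons were examined for a change of sign, and the cause was not tested.

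The median member level moved to 0.56 in LMPP-like and -0.62 in MEP-like cells at resolution 1. With members kept among the variable genes it was 0.0821 in CMP-like, 0.54 in LMPP-like, 1.29 in LTHSC-like and -0.57 in MEP-like cells, and as a mean over cells 0.14 in CMP-like, -0.87 in GMP-like, 0.50 in LMPP-like and -0.30 in Megakaryocyte-like cells. With members kept, an unnamed cluster of 337 cells also had Ifi44, Oasl1 and Oas3 among its top 10 genes. Its part in the CMP-like value was not tested. Cells with at least 2 core members were 10.5% of KL, 24.9% of LTHSC-like, 22.5% of LMPP-like and 2.81% of GMP-like cells. With at least 5 they were 0.821% of KL, 2.35% of LTHSC-like and 2.23% of LMPP-like cells. With all UMIs of a cell, 18.1% of KL, 28.8% of LTHSC-like, 31.4% of LMPP-like and 10.1% of GMP-like cells had at least 3, so LMPP-like cells then came first. Depth limits the low members, since GMP-like levels near 1 CPM rest on few UMIs.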
